A study of Arabidopsis thaliana with 12 samples.

Results

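Germinating Arabidopsis thaliana seeds of the mutant line ago4-2 were compared with wild-type Col-0 seeds while both lay on salt. The comparison takes the libraries labelled ago4-2 with NaCl (n = 2) and Col-0 with NaCl (n = 2), 4 of the 12 libraries of the series, and asks how the transcriptome of the mutant departed from wild type on that medium. Whole germinating seeds of each line were kept at 21 °C with 16 h of light on MS 1X medium containing 100 mM NaCl, their RNA was prepared with hot phenol, and the polyadenylated fraction was sequenced. The same genotypes on MS 1X medium without NaCl are called control here (n = 2 each). Their values, and those of the second mutant line ago4-3 on NaCl (n = 2), are set beside the NaCl comparison. All 12 libraries of the series entered 1 fit of 6 groups, so every p-value rests on a spread estimated over all of them. The labels give neither the lesion nor the accession background of ago4-2, nor how long the seeds had been on the plates, so the stage of each line at harvest is not known. The replicates are called biological, but nothing says that they came from separate plates or seed lots. The p-values therefore measure the spread between libraries of the same group, estimated over the series. In RNA of whole seeds, fewer cells of a type and less RNA per cell cannot be told apart.

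AGO4 binds short interfering RNAs and, through them, brings DNA methylation to matching sequences, a route that keeps transposons and some genes silent. A maturing seed fills with storage globulins and albumins, oil bodies and late embryogenesis abundant (LEA) proteins under the control of abscisic acid and factors such as ABI3 and ABI5. On germination those transcripts decline, stores are used up, walls loosen and the embryo turns on the genes of photosynthesis. Salt delays germination, and abscisic acid is one of its brakes.

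The genotypes differed in a large share of the transcriptome on salt, by mostly small amounts. Of 17751 genes tested, 2649 were higher and 2560 lower in ago4-2 than in Col-0, which is 29.3% of genes in all (14.9% higher and 14.4% lower), at a Benjamini-Hochberg adjusted p under 0.05 in edgeR's quasi-likelihood test. This test and threshold stand behind every call below, and changes are log2 fold changes of ago4-2 over Col-0 with their standard error (SE). The shares of 29.3% called, 14.9% higher and 14.4% lower are the background for every list count on NaCl below. The median size of a called change was 0.62 on the log2 scale, and 1109 calls exceeded a doubling or halving (a log2 change of 1). In all 5209 called genes both libraries of one group lay above both of the other. Groups without overlap therefore add nothing to a call. The total depended on single libraries: it was 3009 without ago4-2 NaCl replicate 1, 2804 without ago4-2 NaCl replicate 2, 3439 without Col-0 NaCl replicate 1 and 4223 without Col-0 NaCl replicate 2. With scaling by library size alone the split moved to 981 higher and 4957 lower, because that scaling shifted the median of all genes to −0.29 from −0.02. Total counts were 26281391 and 33496408 in the ago4-2 libraries and 31001632 and 34167928 in the Col-0 libraries, and the 10 most abundant genes of each took 10.8% to 13.87% of counts in ago4-2, against 6.19% to 7.796% in Col-0.

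AGO4 itself (AT2G27040) was present in the mutant. In CPM, a gene's reads scaled to a common library size, it stood at 38.87 and 35.36 in ago4-2 and at 46.9 and 38.93 in Col-0, a difference of −0.21 ± 0.13 that was not called (adjusted p = 0.229). The transcript level therefore does not show whether the protein was lost, and the libraries of this comparison carry no check of the genotype from the targeted gene.

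Seed-storage transcripts stood out. Of 13 storage globulin and albumin genes, 12 were higher in ago4-2 and 0 lower, against a background of 14.9% of all genes higher, and their median change was 3.54, against −0.02 over all genes. All 12 calls held with each of the 4 libraries left out in turn. The summed storage transcripts made 11690 and 13010 CPM in the ago4-2 libraries and 754.8 and 1113 CPM in the Col-0 libraries. Both mutant libraries were thus far above both wild-type libraries.

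CRUCIFERIN A (CRA1, AT5G44120), a globulin of the legumin type, had 5789 and 6351 CPM in ago4-2 and 489 and 725 CPM in Col-0, a change of 3.32 ± 0.22 (adjusted p = 7.71e-08). CRUCIFERIN C (CRC, AT4G28520) differed more, with 2368 and 2809 CPM in ago4-2 and 39.6 and 84.23 CPM in Col-0 (5.39 ± 0.37, adjusted p = 9.9e-08). The Col-0 libraries varied about their own mean for both cruciferins, and the groups did not overlap, as in every called gene. Among the albumins, which are small sulphur-rich storage proteins, SESA5 (AT5G54740) had the largest change, 1788 and 1988 CPM in ago4-2 against 24.75 and 49.05 CPM in Col-0 (5.68 ± 0.54, adjusted p = 2.68e-06). SESA2 (AT4G27150) had 49 and 54.45 CPM in ago4-2 and 3.61 and 3.977 CPM in Col-0 (3.77 ± 0.18, adjusted p = 1.77e-09). SESA1, SESA3 and SESA4 were higher by 2.54, 3.54 and 3.00, so all 5 albumin genes of the list moved the same way. The vicilin-type genes PAP85 (AT3G22640, 3.69 ± 0.40), AT2G28490 (2.46 ± 0.14) and AT4G36700 (1.96 ± 0.14) were higher as well. The 5 proteases that process storage proteins did not follow as a group (median −0.02): BETA-VPE was higher (0.98), and CEP3 was lower (−1.62, adjusted p = 0.0369), a call that ended whichever of the 4 libraries was left out. Among the storage genes AT2G18540 alone was not called, at 14.98 and 18.82 CPM in ago4-2 and 14.99 and 10.78 CPM in Col-0 (0.39, adjusted p = 0.27).

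Oil bodies are droplets of reserve lipid coated by oleosins, caleosins and steroleosins. All 11 measured genes of these coats were higher in ago4-2, with a median change of 2.50, and 10 of the calls held with each library left out. OLEO2 (AT5G40420), an oleosin, had 737.1 and 753.5 CPM in ago4-2 and 108.1 and 156.2 CPM in Col-0 (2.50 ± 0.15, adjusted p = 3.41e-08). OLEO4 (AT3G27660) differed most within the group, at 108.3 and 115.9 CPM in ago4-2 and 4.737 and 8.328 CPM in Col-0 (4.1 ± 0.44, adjusted p = 8.88e-06). The caleosins CLO1 and CLO2 were higher by 2.77 ± 0.18 and 3.05 ± 0.19, and the steroleosin AT5G50600 by 3.62 ± 0.30. OLEO3 (AT5G51210) lay lowest, at 55.75 and 58.22 CPM in ago4-2 and 31.22 and 49.51 CPM in Col-0, and its call (0.50 ± 0.16, adjusted p = 0.0314) was the one that did not hold in every such fit. Enzymes that break the oil down did not follow the coats. The calls among these enzymes stand beside 29.3% of all genes called. Of 16 genes of fatty acid breakdown and the glyoxylate cycle, 1 was higher, the acyl-CoA oxidase ACX1 (0.69 ± 0.09), and 3 were lower, a count that was 1 without ago4-2 NaCl replicate 2 and 2 without ago4-2 NaCl replicate 1 or Col-0 NaCl replicate 1. Isocitrate lyase (ICL, AT3G21720), the glyoxylate-cycle enzyme typical of germinating oilseeds, had 16820 and 16700 CPM in ago4-2 and 12980 and 14620 CPM in Col-0 and was not called (0.28 ± 0.20, adjusted p = 0.32). It is present in the labelled tissue of both lines at a high level.

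**Figure D1:**
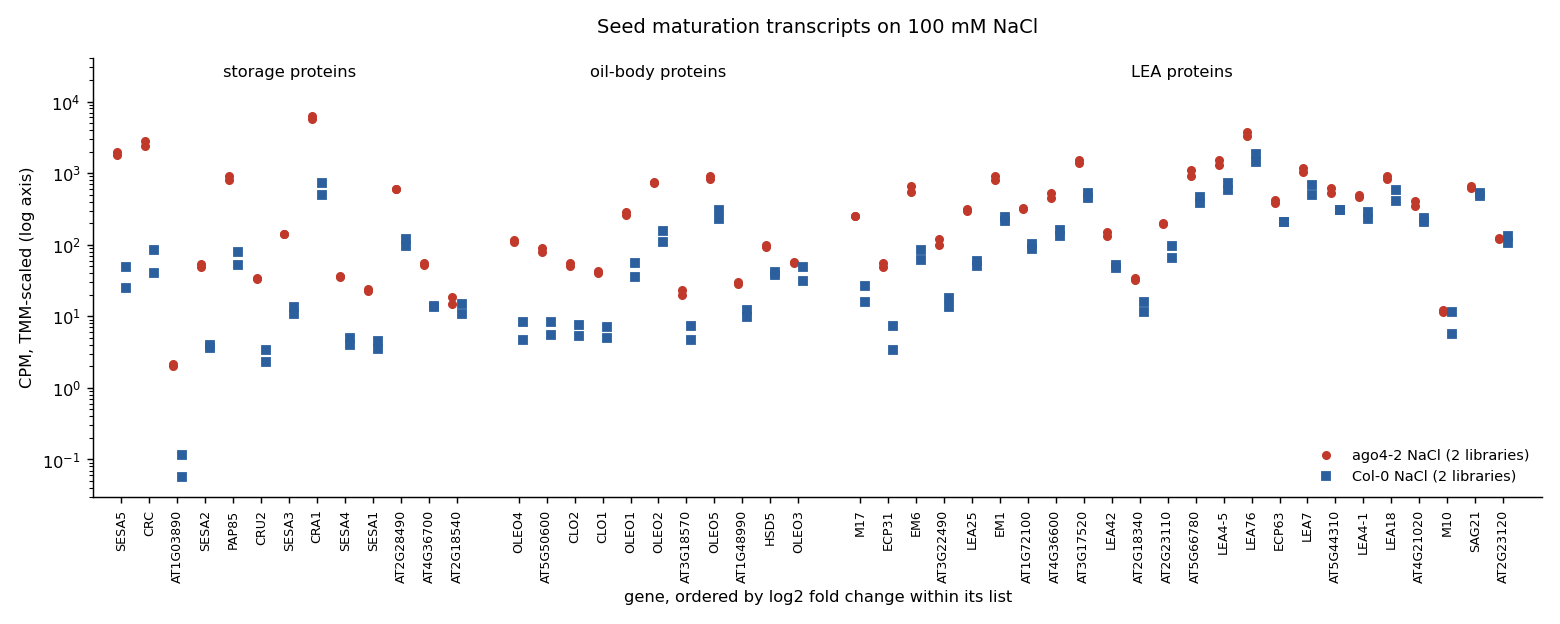
CPM (log axis) of each measured storage-protein, oil-body and LEA gene in the 2 ago4-2 NaCl libraries (red circles, left) and the 2 Col-0 NaCl libraries (blue squares, right). For CRA1 the ago4-2 libraries lie at 5789 and 6351 CPM, above the Col-0 libraries at 489 and 725 CPM.

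LEA proteins, which protect membranes and enzymes in the drying seed, gave the most calls of these groups. Of 24 measured LEA genes outside the dehydrin family, 21 were higher and 0 lower in ago4-2, with a median change of 1.28, and all 21 calls held with each library left out. EM6 (AT2G40170) had 552.7 and 658.9 CPM in ago4-2 and 60.97 and 83.34 CPM in Col-0 (3.07 ± 0.20, adjusted p = 6.13e-08). M17 (AT2G41260) stood at 253.1 and 255.7 CPM in ago4-2, against 15.8 and 26.45 CPM in Col-0 (3.59 ± 0.25, adjusted p = 1.3e-07). For both genes every ago4-2 library exceeded every Col-0 library several-fold. The abundant LEA76 (AT3G15670), at 3275 and 3769 CPM in ago4-2 and 1448 and 1873 CPM in Col-0, changed less (1.08 ± 0.17, adjusted p = 0.000302). M10, AT2G23120 and SAG21 were not called (0.48, 0.03 and 0.34).

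Dehydrins, a LEA family that also answers to cold and drought, did not move as one. Of 10 measured, 5 were higher and 4 lower, with a median of 0.22. The higher ones included AT5G66400, known as RAB18, with 1709 and 1823 CPM in ago4-2 and 329 and 449.4 CPM in Col-0 (2.18 ± 0.27, adjusted p = 3.01e-05), XERO1 (1.35) and AT2G21490 (1.44). COR47 (AT1G20440), with 12.6 and 14.05 CPM in ago4-2 and 26.11 and 27 CPM in Col-0, was lower (−0.99 ± 0.16, adjusted p = 0.000349), as were ERD10 (−0.89) and ERD14 (−0.91). Each of these dehydrins kept its call with every library left out in turn, and COR47 and ERD10 belong to the members best known for their response to cold.

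Stretches before the gene start are printed for members of the storage and LEA groups, and for LHCA4 from the group of antenna genes that was lower, because the groups move together and the stretches hold letters known from seed and abscisic acid control. They are the 250 bases upstream of the annotated start in RefSeq's TAIR10.1 genome, 5′ to 3′ on the gene's strand. Capitals mark CATGCA, the core of the RY element bound by ABI3-type factors, ACGTG, the core of the abscisic acid response element, and CACGTG, the G-box, each read on both strands. The stretches are chr5:17758337-17758586 (minus strand) for CRA1, chr5:22239188-22239437 (minus) for SESA5, chr2:16780369-16780618 (minus) for EM6 and chr3:17495034-17495283 (minus) for LHCA4.
CRA1: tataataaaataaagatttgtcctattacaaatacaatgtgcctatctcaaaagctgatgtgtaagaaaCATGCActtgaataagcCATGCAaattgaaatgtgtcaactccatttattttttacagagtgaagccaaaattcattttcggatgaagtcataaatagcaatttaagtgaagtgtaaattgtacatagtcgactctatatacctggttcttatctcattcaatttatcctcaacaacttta
SESA5: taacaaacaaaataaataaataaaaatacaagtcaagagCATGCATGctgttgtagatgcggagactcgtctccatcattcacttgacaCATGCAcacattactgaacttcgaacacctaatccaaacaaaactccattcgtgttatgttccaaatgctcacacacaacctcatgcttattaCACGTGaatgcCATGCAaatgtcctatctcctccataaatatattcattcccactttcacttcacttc
EM6: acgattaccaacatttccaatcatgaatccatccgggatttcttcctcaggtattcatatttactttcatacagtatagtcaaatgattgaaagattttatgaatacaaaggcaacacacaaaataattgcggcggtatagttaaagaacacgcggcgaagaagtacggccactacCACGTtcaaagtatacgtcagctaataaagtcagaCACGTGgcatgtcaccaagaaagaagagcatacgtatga
LHCA4: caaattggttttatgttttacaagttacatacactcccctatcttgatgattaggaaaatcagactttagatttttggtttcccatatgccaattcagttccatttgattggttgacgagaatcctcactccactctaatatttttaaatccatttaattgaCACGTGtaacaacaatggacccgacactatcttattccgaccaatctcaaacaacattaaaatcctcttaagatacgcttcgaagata

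CRA1 held 2 matches to CATGCA, SESA5 held 4 matches to it and 1 G-box, EM6 held 1 G-box among 3 matches to ACGTG, and LHCA4 held 1 G-box. Every G-box match also contains ACGTG, on each strand, and CATGCA matches can overlap each other. CATGCA was in 11 of 13 storage promoters, 11 of 11 oil-body promoters, 5 of 24 LEA promoters, 0 of 12 antenna promoters, 5 of 27 photosystem promoters and 1 of 20 clock promoters, against 7.17% of all 17550 promoters of the same length. ACGTG was in 9 of 13 storage, 8 of 11 oil-body and 20 of 24 LEA promoters, and in 4 of 12 antenna, 10 of 27 photosystem and 14 of 20 clock promoters, against 23.5% of all. The G-box was in 8 storage, 5 oil-body, 15 LEA, 3 antenna, 3 photosystem and 7 clock promoters, against 7.79% of all. The evening element AATATCT, known from clock-controlled genes and searched the same way, was in 11 of 20 clock promoters, 1 storage, 0 oil-body, 1 LEA, 0 antenna and 3 photosystem promoters, against 9.81% of all. Over all genes higher in ago4-2, these letters were found in 9.05% (CATGCA), 28.1% (ACGTG) and 12% (CACGTG) of promoters, and over all genes lower in ago4-2 in 8.24%, 25.1% and 8.04%. A match is a description of these letters and not of binding.

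The measured genes of the seed maturation and dormancy list had a smaller median change than the storage, oil-body and LEA genes. FUS3, LEC1, LEC2, L1L, BZIP67, DOG1 and DOGL1 were on that list but not measured, so regulators as a whole are not described. Among the 18 measured, which include the peroxiredoxin PER1, 8 were higher and 1 lower. Their median was 0.15, with changes from −0.66 to 4.57. ABI5 (AT2G36270), a bZIP factor of abscisic acid signalling that activates EM genes, had 131.5 and 140.8 CPM in ago4-2 and 77.66 and 76.97 CPM in Col-0 (0.82 ± 0.10, adjusted p = 4.05e-05). Its relative EEL (AT2G41070) had 77 and 88.71 CPM in ago4-2 and 28.33 and 31.12 CPM in Col-0 (1.48 ± 0.12, adjusted p = 6.11e-07). In both cases the ago4-2 libraries lay above the Col-0 libraries, as in every gene called higher. ABI4 was at 73.62 and 73.2 CPM in ago4-2 and 72.55 and 77.4 CPM in Col-0 and was not called (−0.03, adjusted p = 0.869). SOM (AT1G03790), a zinc finger repressor of germination, was higher by 1.06 ± 0.10 (adjusted p = 2.88e-06), and the seed peroxiredoxin PER1 (AT1G48130) by 2.55 ± 0.20 (adjusted p = 4.68e-07). DOGL2 and DOGL3, relatives of the dormancy gene DOG1, were higher by 4.57 ± 0.54 and 3.48 ± 0.34. DOGL2 was nearly off in Col-0, at 0.1733 and 0.1153 CPM, and the limit given below for near on or off values applies to it. SPT (AT4G36930), a basic helix-loop-helix factor of dormancy, was lower (−0.66 ± 0.12, adjusted p = 0.00118).

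For abscisic acid itself, genes of synthesis and breakdown gave 2 higher and 2 lower among 9, with 1 higher without ago4-2 NaCl replicate 1 or Col-0 NaCl replicate 2. The breakdown enzymes CYP707A1 (AT4G19230; 2.987 and 3.803 CPM in ago4-2, 9.155 and 10.11 CPM in Col-0) and CYP707A2 (AT2G29090; 11.51 and 12.18 CPM in ago4-2, 19.18 and 20.17 CPM in Col-0) were both lower, by −1.49 ± 0.22 and −0.73 ± 0.13. ABA1 (AT5G67030), an early step of synthesis, was higher (0.77 ± 0.15, adjusted p = 0.00143), a call that ended with scaling by library size alone. Among 24 signalling genes 5 were higher and 3 lower. The count of higher genes was 3 without Col-0 NaCl replicate 1 or without either ago4-2 NaCl replicate, and 2 with library size alone, where 10 were lower.

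The 8 called of 24 are close to the 29.3% of all genes called, so the members are given singly. The receptors PYL2 (−0.84 ± 0.11, adjusted p = 5.39e-05) and PYL6 (−0.68 ± 0.16, adjusted p = 0.00461) were lower. Type 2C phosphatases, which hold the pathway back, were higher in AHG1 (AT5G51760), at 43.59 and 43.2 CPM in ago4-2 and 9.444 and 11.93 CPM in Col-0 (2.02 ± 0.14, adjusted p = 1.09e-07), HAI2 (1.71 ± 0.26) and HAB1 (0.81 ± 0.15). None of the 3 kinases SNRK2.2, SNRK2.3 and OST1 was called (−0.19, −0.14 and 0.15). The factor ABF1 (AT1G49720) was lower (−0.94 ± 0.17, adjusted p = 0.000759).

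Osmotic and cold stress genes split evenly, 7 higher and 7 lower of 22, though not all of these calls held with each library left out. On the higher side were TSPO (AT2G47770), an abscisic acid-induced membrane protein, with 262.2 and 263.6 CPM in ago4-2 and 40.66 and 52.02 CPM in Col-0 (2.50 ± 0.12, adjusted p = 2.55e-09), and RD29B (AT5G52300), with 315.4 and 345.5 CPM in ago4-2 and 117.8 and 131.8 CPM in Col-0 (1.40 ± 0.12, adjusted p = 1.24e-06). The linker histone HIS1-3 (1.87 ± 0.16), galactinol synthase GOLS1 (1.55 ± 0.17) and the drought factor DREB2A (0.85 ± 0.11) were higher too. RD29A, the neighbour of RD29B, had 37.4 and 46.27 CPM in ago4-2 and 39.19 and 45.33 CPM in Col-0 and was not called (−0.01, adjusted p = 0.954). KIN2 (AT5G15970) was lower, with 17.83 and 17.55 CPM in ago4-2 and 42.51 and 63.48 CPM in Col-0 (−1.58 ± 0.16, adjusted p = 5.87e-06). LTP3 (−1.99 ± 0.21), the zinc finger factor ZAT12 (−1.55 ± 0.28) and the proline synthesis gene P5CS1 (−0.99 ± 0.15) were lower as well. Of 10 ion transport genes, among them SOS1 and NHX1, which export or store sodium, 0 were higher and 1, NHX5, was lower, and that call (−0.55, adjusted p = 0.0312) ended without Col-0 NaCl replicate 1 or either ago4-2 NaCl replicate.

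Photosynthesis genes were lower in ago4-2 as groups. Of 12 light-harvesting antenna genes 11 were lower and 0 higher in ago4-2, against a background of 14.4% of all genes lower, with a median change of −1.67. Nuclear genes for photosystem, electron transport and ATP synthase subunits gave 25 lower and 0 higher of 27 (median −1.34), carbon fixation 8 lower of 9 (median −0.86) and chlorophyll synthesis 8 lower of 9 (median −0.73). With each library left out, 11, 22, 7 and 6 of these calls held. Reads of the near-identical LHCB1 and RBCS copies may be shared between them, so single members of those families are uncertain.

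LHCA4 (AT3G47470), an antenna protein of photosystem I, had 21.77 and 25.49 CPM in ago4-2 and 70.18 and 83.95 CPM in Col-0 (−1.70 ± 0.12, adjusted p = 1.28e-07). LHCB5 (AT4G10340), a minor antenna of photosystem II, had 4.588 and 6.372 CPM in ago4-2 and 37.55 and 46.28 CPM in Col-0 (−2.92 ± 0.17, adjusted p = 2.56e-08). LHCB5 had the largest change of the antenna genes. In the reaction centres, PSAD1 (AT4G02770) of photosystem I had 18.48 and 25.52 CPM in ago4-2 and 69.89 and 72.22 CPM in Col-0 (−1.69 ± 0.13, adjusted p = 4.32e-07). PSBO1 (AT5G66570), of the oxygen-evolving complex, had 7.878 and 8.074 CPM in ago4-2 and 35.47 and 42.33 CPM in Col-0 (−2.28 ± 0.15, adjusted p = 7.67e-08). The rubisco activase RCA (−1.0 ± 0.10) and phosphoribulokinase PRK (−0.86 ± 0.09) were lower in carbon fixation. CHLH (AT5G13630), a subunit of the magnesium chelatase that starts chlorophyll synthesis, had 4.675 and 5.572 CPM in ago4-2 and 32.46 and 27.66 CPM in Col-0 (−2.55 ± 0.17, adjusted p = 7.32e-08), while PORB, of a later step, was lower by −1.30 ± 0.13. RBCS1A, at 3732 and 4029 CPM in ago4-2 and 4260 and 5253 CPM in Col-0, was not called (−0.29, adjusted p = 0.204).

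**Figure D2:**
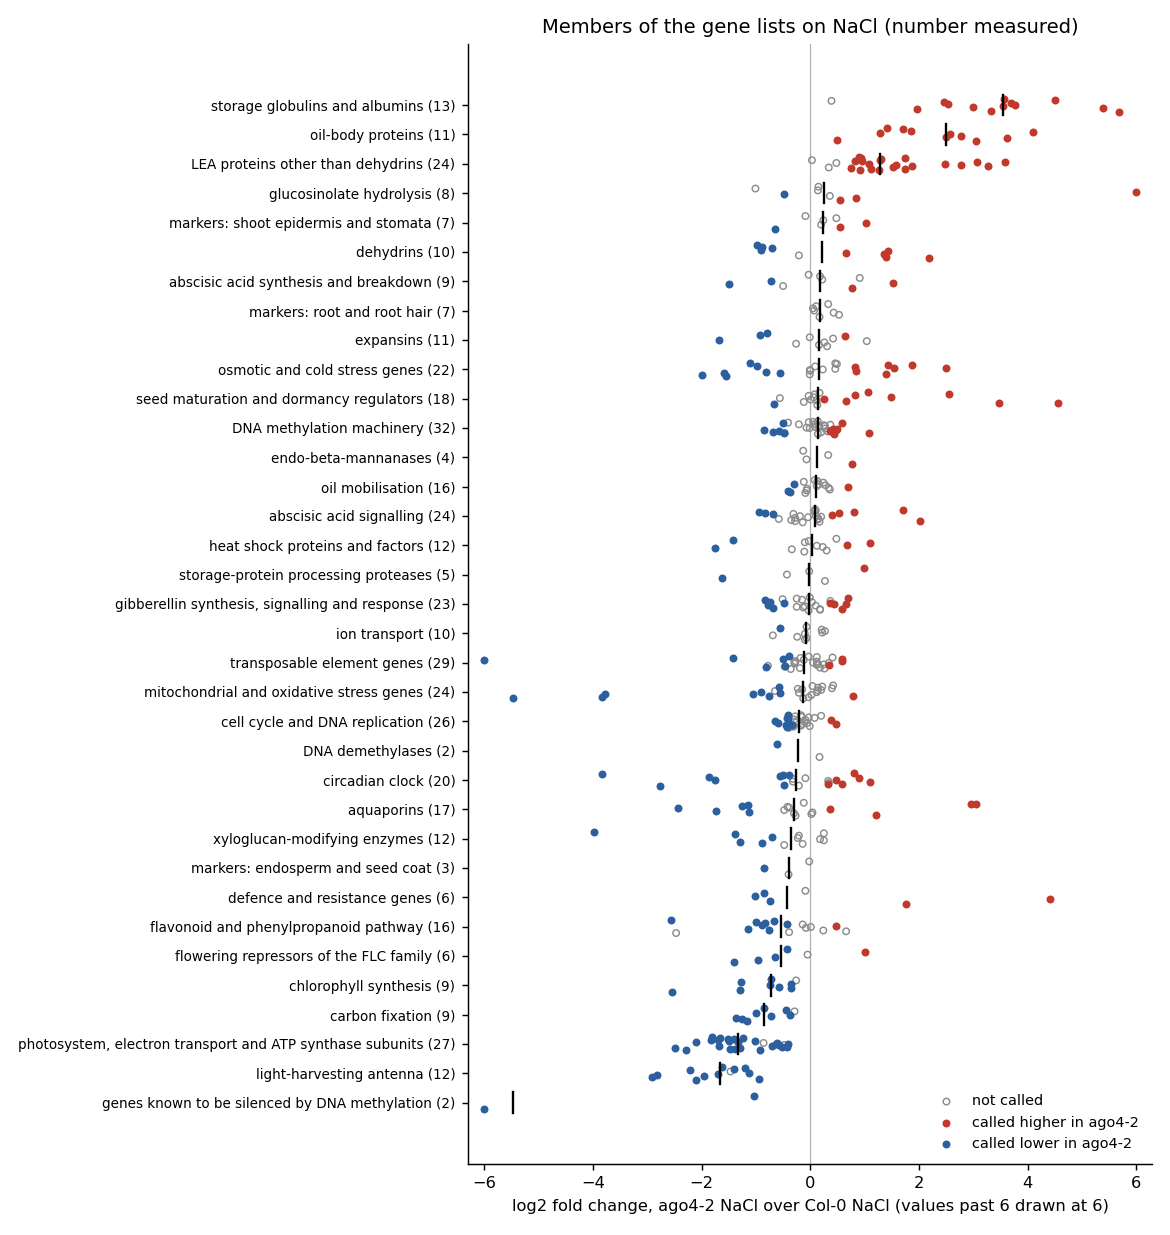
Log2 fold change of ago4-2 NaCl over Col-0 NaCl for every measured member of each gene list. Each point is a gene (red higher, blue lower, open not called), the bar is the list's median, and values past 6 are drawn at 6. The medians of the storage, oil-body and LEA lists lie at 3.54, 2.50 and 1.28 and those of the antenna and photosystem lists at −1.67 and −1.34.

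Most transcripts of the organelle genomes were not called. All 119 measured plastid and mitochondrial genes had a change above 0, with a median of 1.56, and their sum was 15410 and 11820 CPM in ago4-2 and 2287 and 6127 CPM in Col-0. The Col-0 libraries differed among themselves, and 13 were called higher (5 of 82 plastid and 8 of 37 mitochondrial genes), a smaller share than the 14.9% of all genes. That count was 1 without Col-0 NaCl replicate 1, 4 without either ago4-2 NaCl replicate and 8 without Col-0 NaCl replicate 2. Most of these RNAs carry no long poly(A) tail, and their share within 1 group could differ widely, as in the ago4-2 control libraries with 2.04% and 0.2015% of counts. The part of RNA preparation in these values was not tested.

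Among genes that carry germination forward, 4 of 11 expansins and 10 of 23 gibberellin genes were called, beside 29.3% of all genes. Expansins loosen cell walls, and of 11 measured 3 were lower and 1 higher. EXPA8 (AT2G40610) had 8.007 and 8.741 CPM in ago4-2 and 24.84 and 29.39 CPM in Col-0 (−1.69 ± 0.12, adjusted p = 1.75e-07), EXPA1 was lower by −0.93 ± 0.11 and EXPA10 by −0.79 ± 0.10. EXPA15 was higher (0.64 ± 0.11). Of the 12 listed genes for xyloglucan-modifying enzymes 5 were lower, among them XTH19 (−0.89 ± 0.09), and 0 higher. The call of XTH19 held with each library left out, but not all of the lower calls did. XTH25 (AT5G57550), a member of that family outside the list, was higher (4.06 ± 0.80, adjusted p = 0.00159). It had 6.233 and 7.373 CPM in ago4-2 and 0.1733 and 0.634 CPM in Col-0. Of 4 endo-beta-mannanases, which soften the endosperm, MAN7 was higher (0.77 ± 0.11). In the gibberellin pathway, the hormone that promotes germination, 5 of 23 genes were higher and 5 lower, with 3 higher without Col-0 NaCl replicate 2 or either ago4-2 NaCl replicate, and 3 and 2 lower without Col-0 NaCl replicate 2 and ago4-2 NaCl replicate 1. The synthesis gene GA3OX2 (AT1G80340), at 20.82 and 17.68 CPM in ago4-2 and 26.86 and 37.15 CPM in Col-0, was lower (−0.74 ± 0.14, adjusted p = 0.00108). The growth repressor GAI was higher (0.70 ± 0.11, adjusted p = 0.000271) and the receptor GID1A as well (0.65 ± 0.12, adjusted p = 0.000965). GASA2 (AT4G09610), annotated as GAST1 protein homolog 2 and outside this list, was also higher (7.29 ± 0.82, adjusted p = 1.45e-05). It had 5.367 and 5.004 CPM in ago4-2 and only 2 counts in all in Col-0. Of 26 cell cycle and replication genes 2 were higher and 8 lower, changes that all lay between −0.65 and 0.48, and the lower count was 2 without Col-0 NaCl replicate 1, 3 without ago4-2 NaCl replicate 1 and 0 without ago4-2 NaCl replicate 2.

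Aquaporins, the water channels of membranes, gave 4 higher and 5 lower of 17. The seed-specific tonoplast channels TIP3;1 (AT1G73190; 157.3 and 153.7 CPM in ago4-2, 14.09 and 23.54 CPM in Col-0) and BETA-TIP (AT1G17810; 92.67 and 100.8 CPM in ago4-2, 11 and 14.09 CPM in Col-0) were higher by 3.05 ± 0.21 and 2.95 ± 0.22. TIP2 (AT3G26520), a tonoplast channel of growing tissue, was lower, with 21.3 and 21.79 CPM in ago4-2 and 64.26 and 79.19 CPM in Col-0 (−1.73 ± 0.13, adjusted p = 2.63e-07). The plasma membrane channel PIP2A (AT3G53420) was lower as well, with 25.06 and 25.79 CPM in ago4-2 and 53.4 and 57.17 CPM in Col-0 (−1.12 ± 0.10, adjusted p = 1.61e-06). Plasma membrane channels were found on both sides, as PIP1;5 was higher (1.21, adjusted p = 0.00245). The flavonoid pathway gave 8 lower and 1 higher of 16, among the lower FLS1 (−1.15 ± 0.14), TT5 (−0.89 ± 0.15) and the phenylpropanoid enzyme C4H (−0.66 ± 0.11). The calls of FLS1, TT5 and C4H held with each library left out. Not all of the lower calls did, and the higher one did not.

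The clock gene GI (AT1G22770), which times flowering and growth by day length, had the largest change of the clock list. It stood at 1.731 and 1.601 CPM in ago4-2 and at 22.96 and 24.41 CPM in Col-0 (−3.83 ± 0.16, adjusted p = 3.8e-10), so that both mutant libraries lay far below both wild-type ones. LNK1 (−2.77 ± 0.20) and PRR7 (−1.75 ± 0.25), also clock components, were lower, and RVE2 (1.10 ± 0.14) and BOA (0.59 ± 0.13) were higher. Over the 20 clock genes measured 6 were higher and 8 lower. The higher count was 3 without Col-0 NaCl replicate 2 or either ago4-2 NaCl replicate and 4 without Col-0 NaCl replicate 1, and the lower count was 4, 5 and 4 without Col-0 NaCl replicate 1, ago4-2 NaCl replicate 1 and ago4-2 NaCl replicate 2. The time of day of harvest is not given in the labels, and its part in the clock genes was not tested.

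In the mitochondrial and oxidative stress list 1 gene was higher and 8 lower of 24, and the lower count was 5 without Col-0 NaCl replicate 1 or ago4-2 NaCl replicate 2. The iron superoxide dismutase FSD1 (AT4G25100) had 2.77 and 2.002 CPM in ago4-2 and 35.93 and 31.27 CPM in Col-0 (−3.83 ± 0.17, adjusted p = 1.07e-09). AT5G09570, a small CHCH-domain protein, had 0.08657 and 0.2002 CPM in ago4-2 and 6.325 and 7.348 CPM in Col-0 (−5.47 ± 0.32, adjusted p = 2.43e-08). The peroxidase APX1 was lower by −0.57 ± 0.11, and the dehydrogenase NDB2 was higher by 0.78 ± 0.13. The counts of this list and of the heat shock genes stand beside 29.3% of all genes called. Heat shock genes gave 2 higher and 2 lower of 12 (1 lower without ago4-2 NaCl replicate 1 or Col-0 NaCl replicate 2), with HSP70 at 0.68 ± 0.14.

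The machinery of DNA methylation, in which AGO4 acts, changed little. Among 32 genes 7 were higher and 5 lower, all between −0.85 and 1.09, a share not far from the 29.3% of all genes, and with scaling by library size alone 0 were higher. The higher count was 1 without Col-0 NaCl replicate 2, 4 and 2 without the ago4-2 NaCl replicates in turn and 5 without Col-0 NaCl replicate 1, and the lower count was 1 without Col-0 NaCl replicate 1 or ago4-2 NaCl replicate 2. SUVH9 (AT4G13460), a protein that reads methylated DNA, had 12.86 and 12.81 CPM in ago4-2 and 22.44 and 23.8 CPM in Col-0 (−0.85 ± 0.11, adjusted p = 7.39e-05). The argonautes AGO6 and AGO9 were not called (0.37 and −0.47). The demethylase ROS1, a known target of this methylation route, had 5.151 and 5.538 CPM in ago4-2 and 8.953 and 7.464 CPM in Col-0 (−0.62 ± 0.19, adjusted p = 0.0253), a call that ended without Col-0 NaCl replicate 1 or either ago4-2 NaCl replicate. Genes whose annotation text names a transposon or transposition gave 3 higher and 6 lower of 29 with a median of −0.12, the lower count being 3 without either Col-0 NaCl replicate and 4 and 2 without the ago4-2 NaCl replicates in turn, and the higher count 1 without ago4-2 NaCl replicate 1. CMT3, DRD1, HTA9 and HTA11 among the 9 are chromatin genes whose text only mentions transposons, and 12 were lower and 1 higher with library size alone. The 9 calls among these 29 genes are a share not far from the 29.3% of all genes. The retroelement SADHU1-1 (AT2G10410), known to be silenced by DNA methylation in some accessions, had the largest change of this list, at 0.3463 and 0 CPM in ago4-2 and 134.7 and 164.5 CPM in Col-0 (−9.91 ± 0.34, adjusted p = 6.88e-11). EPF2, another gene known to be silenced by methylation, was lower too (−1.04, adjusted p = 0.00305), and on control medium it was not called (0.24). SDC, FWA and SUP, the other 3 of the 5 genes listed as silenced this way, were not measured. The list as a whole is therefore not described by these 2 genes. Of the 6 flowering repressors of the FLC family 4 were lower, 2 without either ago4-2 NaCl replicate. FLC was higher (1.01 ± 0.19, adjusted p = 0.0013), and MAF4 (−0.97 ± 0.20) and MAF5 (−1.40 ± 0.25) were lower.

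Beside these graded changes, a small set of genes was close to on in one genotype and off in the other. A log2 change over 4 was reached by 71 called genes, 41 higher and 30 lower, which is 0.4% of genes tested. Not all of the 71 were near off in a genotype, as CRC, SESA5, OLEO4 and MRD1 among them were expressed in both. AT4G19240, an uncharacterized gene on the minus strand of chromosome 4 (10527800 to 10529092 in TAIR10.1), had 125.5 and 120 CPM in ago4-2 and 0 counts in Col-0, at least 1415-fold higher on a floor of 3 counts per library, and its close neighbour AT4G19239, a pseudogene, was at least 437.7-fold higher. In the other direction AT2G04378, a beta-galactosidase-related gene on the minus strand of chromosome 2 (1525029 to 1526875), had 2 counts in all in ago4-2 and 64.49 and 65.96 CPM in Col-0. The ratio of Col-0 over ago4-2 was 1731, with an exact 95% interval of 478.8 to 14290 that covers counting error only, and AT2G09795, annotated as a non-coding RNA gene, was at least 227.5-fold lower in ago4-2. The uncharacterized AT2G04380 overlaps AT2G04378 on the other strand, and AT4G19239 lies next to AT4G19240, so the members of each pair may share reads. On the higher side AT4G11170, a TIR-NBS-LRR resistance gene, had a 255.6-fold ratio of ago4-2 over Col-0 (87.04 to 1243). In all 16 genes were near silent in Col-0 and higher in ago4-2, and 17 the reverse, with fewer than 4 counts in the lower group. AT3G32030, among the 16, had only 4 and 6 counts in the ago4-2 libraries.

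Genes with counts on both sides gave measurable ratios. AT2G21100, of the dirigent-like family, had 49.56 and 55.52 CPM in ago4-2 and 0.05776 and 0.1153 CPM in Col-0 (9.17 ± 0.31, adjusted p = 5.28e-11). ESM1 (AT3G14210), which modifies the hydrolysis of glucosinolates and was 1 of 3 higher genes among 8 of that process, had 96.13 and 104.1 CPM in ago4-2 and 0.7509 and 1.037 CPM in Col-0 (6.80 ± 0.20, adjusted p = 1.54e-11). RPP4 (AT4G16860), a disease resistance gene of the TIR-NBS-LRR type, had 11.38 and 12.14 CPM in ago4-2 and 0.4043 and 0.6916 CPM in Col-0 (4.41 ± 0.33, adjusted p = 2.19e-07). HSD2 (AT3G47350), a steroleosin-like dehydrogenase, was lower, with 0.2597 and 0.5004 CPM in ago4-2 and 69.89 and 71.78 CPM in Col-0 (−7.47 ± 0.26, adjusted p = 7.56e-11), unlike HSD5 of the oil-body list (1.29 ± 0.14). AT3G06433, a pseudogene of the nodulin MtN3 family, had 1.169 and 1.234 CPM in ago4-2 and 113.2 and 145.5 CPM in Col-0 (−6.74 ± 0.17, adjusted p = 2.21e-12). AT3G28290 and AT3G28300, near-identical neighbours, were higher by 6.78 ± 0.40 and 7.35 ± 0.33, and reads may be shared between them. The resistance gene RPP5 was higher too (1.77), whereas the other called defence genes, ICS1, PAD4 and SNC1, were lower, a count of 3 that was 0 without ago4-2 NaCl replicate 2, 1 without ago4-2 NaCl replicate 1 or Col-0 NaCl replicate 2 and 2 without Col-0 NaCl replicate 1.

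These large changes were unevenly spread over the genome. Chromosomes 2, 3 and 4 held 63 of the 71, at 6.65, 4.89 and 10.5 per 1000 genes tested, while chromosomes 1 and 5 held 4 each, at 0.866 and 0.978 per 1000. Calls of any size were spread more evenly, from 26.9% of genes on chromosome 5 to 34.8% on chromosome 4. In windows of 1 Mb of the TAIR10.1 annotation, 15 of 121 windows held at least 2 of the 71 and together 47 of them. The window from 6 to 7 Mb of chromosome 4 held 7, and that from 4 to 5 Mb of chromosome 2 held 6 among only 16 genes tested. No test was made of this pattern. Since the accession background of ago4-2 is not labelled, a difference in gene sequence between the lines and a difference in transcript level cannot be told apart in these near on or off values.

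**Figure D3:**
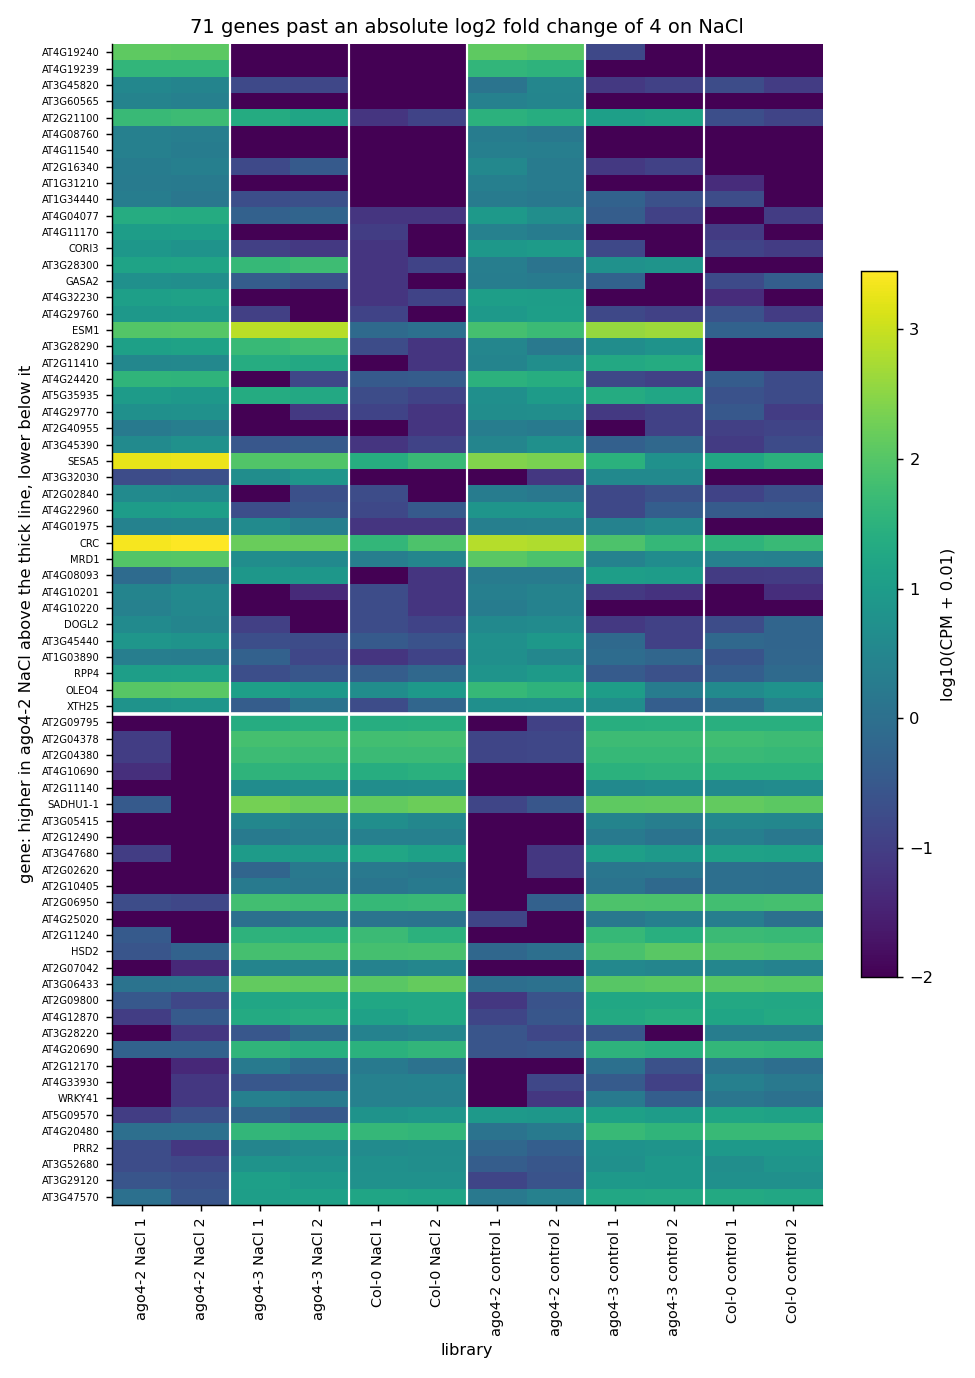
Log10(CPM + 0.01) of the 71 genes with a called log2 change over 4 between ago4-2 NaCl and Col-0 NaCl, in each of the 12 libraries. SADHU1-1, at 0.3463 and 0 CPM in the ago4-2 NaCl libraries and 134.7 and 164.5 CPM in the Col-0 NaCl libraries, is also low in the ago4-2 control libraries.

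Values on control medium show which of these differences were also called without salt. The control libraries are not part of the NaCl contrast, though they entered the same fit and its estimate of spread. There 1498 genes were called between ago4-2 and Col-0 (8.44%), 5.22% higher and 3.22% lower, a total that ranged from 533 to 2420 with 1 control library left out, being 782 and 2420 when the first and second ago4-2 control replicates were omitted and 533 and 563 when those of Col-0 were. On both media 628 genes were higher (3.54% of genes tested) and 402 lower (2.26%), which together is 19.8% of the NaCl calls and 68.8% of the control calls, and 53 were called in opposite directions, 45 of them lower on NaCl and higher on control. Of the 71 genes with large changes, 69 were called the same way on control medium.

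**Figure D4:**
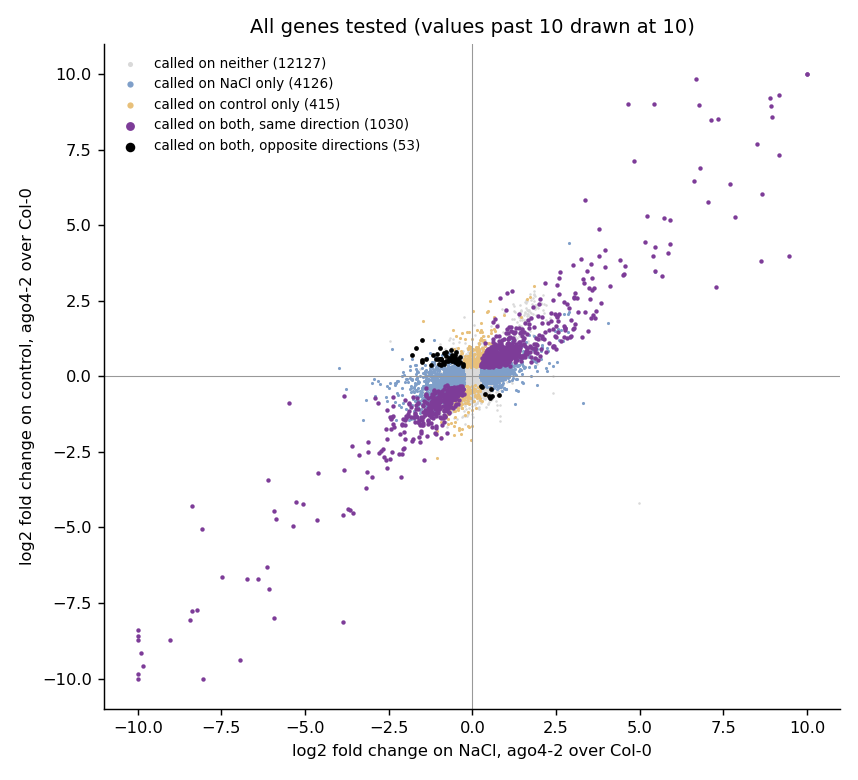
Log2 fold change of ago4-2 over Col-0 on NaCl (x) and on control medium (y) for all genes tested, coloured by where they were called and clipped at 10. Genes called on both media in the same direction number 1030, and 4126 were called on NaCl and not on control medium.

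Whether a difference depended on the medium was tested as the salt response, the change from control to NaCl in ago4-2 minus that in Col-0, which uses the NaCl libraries again. It was called for 786 genes (4.43%; 1.84% higher and 2.59% lower), of which 709 (3.99% of genes tested) were also called on NaCl. That total was 319 and 290 with the ago4-2 NaCl replicates left out in turn and 298 and 254 with those of the Col-0 control, and 567 to 1129 without any of the other 4 libraries.

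Storage and oil-body genes were higher on both media. On control medium 12 of 13 storage genes and 11 of 11 oil-body genes were higher in ago4-2, with medians of 3.27 and 1.59, beside 3.54 and 2.50 on NaCl, and 10 to 12 and 9 to 11 of these calls were made with 1 control library left out. CRA1 differed by 3.22 on control medium and 3.32 on NaCl, and its salt response was not called different (0.10, adjusted p = 0.903). The salt response was called higher for 1 storage gene, AT4G36700 (1.42, adjusted p = 0.000926), a count that was 3 without Col-0 NaCl replicate 2 and 2 without ago4-2 control replicate 1. Of the oil-body genes 3 of 11 were called higher in the salt response, OLEO2, CLO1 and CLO2 (median of the list 0.75), against 1.84% of all genes. That count was 0 without ago4-2 NaCl replicate 2 or the second replicate of the Col-0 control, 5 without Col-0 NaCl replicate 2, 4 without ago4-2 control replicate 1 and 1 without any other library. Summed storage transcripts were 2302 and 2108 CPM in ago4-2 and 185.4 and 255.9 CPM in Col-0 on control medium. LEA genes differed on control medium too, 17 of 24 higher with a median of 0.63, but that count was 8 and 5 when the first and second Col-0 control replicates were omitted. The salt response was called larger in ago4-2 for 14 LEA genes. This second count was 2 without ago4-2 NaCl replicate 2, 3 and 6 when the second and first Col-0 control replicates were omitted, and 8 and 9 without Col-0 NaCl replicate 1 and ago4-2 NaCl replicate 1. EM6 was among the 14 (1.34, adjusted p = 0.011), and its call ended without ago4-2 NaCl replicate 2 or Col-0 control replicate 2, whereas that of AT1G72100 (1.25, adjusted p = 0.000926) held in every such fit.

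Photosynthesis genes, lower in ago4-2 on NaCl, had median differences close to 0 on control medium. There the medians were −0.01 for the antenna, 0.19 for photosystem and related subunits, 0.02 for carbon fixation and 0.20 for chlorophyll synthesis, and 2 antenna genes were higher and 1 lower, as were 8 and 1 photosystem genes. The 8 became 2 and 1 when the first and second Col-0 control replicates were omitted and 5 when ago4-2 control replicate 1 was, and of the 2 antenna genes 0 were left without either Col-0 control replicate and 1 without ago4-2 control replicate 2. The salt response was called lower in 12 of 12 antenna genes, 24 of 27 photosystem genes, 6 of 9 carbon fixation genes and 9 of 9 chlorophyll synthesis genes, against 2.59% of all genes. With 1 library left out these counts were 8 to 11, 17 to 25, 5 to 6 and 3 to 9, and the last was 3 and 5 with the first and second ago4-2 NaCl replicates omitted and 4 and 3 with those of the Col-0 control. In CPM, LHCB1.3 (AT1G29930) stood at 47.73 and 51.72 in ago4-2 and at 34.41 and 33.04 in Col-0 on control medium, and at 50.47 and 63.86 in ago4-2 and 146.8 and 155 in Col-0 on NaCl. For LHCB1.3 the ago4-2 libraries were thus alike on the 2 media, and the Col-0 libraries were higher on NaCl. Summed ago4-2 CPM was 143.7 and 173.4 on NaCl and 159.2 and 164.4 on control medium for antenna genes. It was 1072 and 1172 beside 1410 and 1319 for photosystem genes, and 545.2 and 568.4 beside 705 and 700.7 for chlorophyll synthesis. For carbon fixation it was 4468 and 4804 beside 4620 and 4134. In Col-0 the sum of each of these lists was higher on NaCl in both libraries. PSAD1 was the reverse on the 2 media, higher in ago4-2 on control medium (0.94, adjusted p = 0.000427) and lower on NaCl (−1.69), with a salt response of −2.62 (adjusted p = 4.86e-06).

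**Figure D5:**
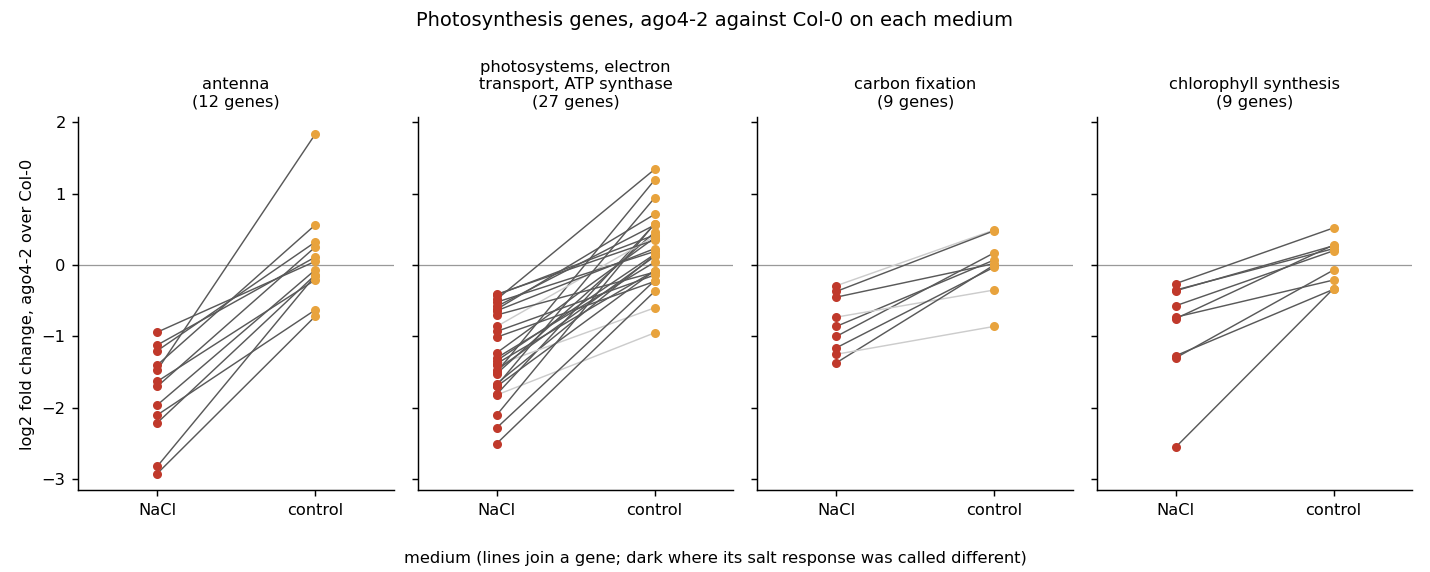
Log2 fold change of ago4-2 over Col-0 for each antenna, photosystem, carbon fixation and chlorophyll synthesis gene on NaCl (left) and control medium (right). Lines join the same gene and are dark where the salt response was called different. The antenna median is −1.67 on NaCl and −0.01 on control medium.

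Other genes whose difference depended on the medium belong to several of the groups above. GI had a salt response of −3.19 (adjusted p = 2.93e-06), EXPA8 of −2.07 (adjusted p = 1.27e-05) and the acyl-carrier desaturase FTM1 (AT1G43800) of −2.50 (adjusted p = 2.93e-06). FTM1 had 127.7 and 103.8 CPM in ago4-2 and 418.3 and 388.3 CPM in Col-0 on NaCl, whereas on control medium it was higher in ago4-2 (0.70). The receptor PYL2 differed by −0.84 on NaCl and by 0.42 on control medium, with a salt response of −1.26 (adjusted p = 0.000303). On the positive side were the stress factor NAC032 (AT1G77450), at 192.6 and 190.9 CPM in ago4-2 and 61.49 and 67.98 CPM in Col-0 on NaCl (salt response 1.26, adjusted p = 8.21e-05), sucrose synthase SUS3 (0.98) and the seed ferritin FER2 (1.15). On control medium FER2 was called lower in ago4-2. RD29A, not called on NaCl, was lower in ago4-2 on control medium (−1.63, adjusted p = 1.72e-05), and its salt response was 1.62 (adjusted p = 0.000824). The salt response calls named here held with each of the 8 libraries of the contrast left out.

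Seeds of ago4-3 on NaCl were set against the same Col-0 libraries, so the values are side by side and not independent. For ago4-3, 211 genes were called (1.19%). Its storage genes had a median of 0.65 with 2 of 13 higher, beside 3.54 and 12 in ago4-2, and its summed storage transcripts were 1884 and 1776 CPM. LEA genes had a median of 0.44 (4 of 24 higher), antenna genes −0.30 (0 of 12 called) and photosystem genes −0.19 (1 of 27 lower). GI had 27.7 and 31.18 CPM in ago4-3, SADHU1-1 201.4 and 160.3 CPM, and ESM1 772.8 and 741.3 CPM. AT5G09570 was low in ago4-3 as in ago4-2, at 0.5832 and 0.3431 CPM (−3.92), and AGO4 itself was at 0.729 and 0.5489 CPM in ago4-3.

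Markers of other tissues were called in part on NaCl, beside 29.3% of all genes. Of 7 root and root hair markers 0 were called in either direction (changes from 0.05 to 0.53). Of 7 shoot epidermis and stomata markers, ATML1 (0.54) and MUTE (1.03) were higher and SPCH (−0.65, adjusted p = 0.0308) was lower, and the call of SPCH ended without Col-0 NaCl replicate 1 or either ago4-2 NaCl replicate. Of 3 endosperm and seed coat markers SUC5 (AT1G71890) was lower, at 4.285 and 4.504 CPM in ago4-2 and 8.144 and 7.867 CPM in Col-0 (−0.86 ± 0.21, adjusted p = 0.00638). Their part in the results was not tested.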

How the data were processed

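Per the labels, whole germinating seeds were sampled and polyadenylated RNA was sequenced. The authors deposited 9 tables with raw read counts per gene, log2 fold changes and p-values with FDR, 1 for each of their comparisons. The tools named in the submitters' processing notes are edgeR, DESeq, Picard and SAMtools, and the build is TAIR10; versions and roles are not stated. No aligner, annotation or strand setting is given in the sources used here, and counts of a gene may therefore include antisense reads. Even numbers made up 72.35% to 87.65% of low counts per library, so both mates of a pair may have been counted, and counting intervals may be too narrow.

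Counts from the tables, which held 17777 to 18171 rows, were joined by gene (0 disagreed between tables, 146 repeats of a gene were dropped). The 36 columns of pseudo-counts were not used. The 791 genes missing from at least 1 table were left out, leaving 17751. Library totals in the series ran from 18168653 to 47517007. Counts of the 12 libraries were fitted in 6 groups with edgeR 4.0.16 (TMM scaling, quasi-likelihood test, Benjamini-Hochberg adjustment over all genes; R 4.3.3), and DESeq2 1.42.0 was an alternative. Other alternatives were scaling, filters, the authors' own table, a replicate block and each library left out. On simulated data the edgeR test recovered 84% of 2-fold and 100% of 4-fold changes. Only 100 genes were changed at each size there, none of them of low level in Col-0. Recovery of smaller changes, of low genes or with as many changes as called here was not tested. Gene names, positions and promoters came from RefSeq's TAIR10.1; the files hold no coordinates.

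The gene lists, and the members named, were chosen with earlier results of these data known. Named genes are AGO4, the 10 largest called changes in each direction among genes of at least 5 CPM in the higher group, 5 in each direction with fewer than 4 counts in the lower group, up to 4 called members per list, members that explain a list's count, and 5 in each direction by the p of the salt response. Genes listed beside them from a family or list were chosen after their values were seen. Same-numbered replicates do not share a source in the labels. The upstream sequence of an oil-body gene is not reported here.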

Additional observations from a re-analysis of the deposited data

Results flagged for a closer look

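These results differed between the genotypes in their response to salt by a test of that difference (edgeR's quasi-likelihood test with Benjamini-Hochberg adjustment over all genes). It was passed by 786 genes. Of the genes also called on NaCl, those with the smallest p on the positive side were NAC032 (1.26), AT5G60760 (1.19), AT4G03200 (1.40), SUS3 (0.98) and FER2 (1.15), each a log2 salt response of ago4-2 minus that of Col-0. On the negative side they were GI (−3.19), FTM1 (−2.50), PSAD1 (−2.62), LHCB1.3 (−1.96) and EXPA8 (−2.07). All 10 held with each of the 8 libraries left out in turn.

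By list, the test was passed by 12 antenna genes, 24 photosystem and related genes, 6 carbon fixation genes and 9 chlorophyll synthesis genes, all with the lower salt response in ago4-2. It was passed by 14 LEA genes, all with the higher one, and 5 osmotic and cold stress genes (RD29A, RD29B, DREB2A, TSPO and HIS1-3), all higher. Of 6 abscisic acid signalling genes that passed, AHG1 and HAI3 were higher and PYL2, PYL4, PYL6 and ABI1 lower. The calls of DREB2A, HAI3, PYL4 and ABI1 did not hold with each library left out, whereas those of the other stress and signalling genes named here did. The abscisic acid signalling count was 3 without Col-0 control replicate 2 or ago4-2 NaCl replicate 2.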

How the results depend on the processing

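Leaving out 1 library at a time gave 2804 to 4223 called genes on NaCl (1474 to 2180 higher, 1330 to 2043 lower), 533 to 2420 on control medium and 254 to 1129 for the salt response, and 71 to 81 genes past a log2 change of 4. With library size alone 981 genes were higher and 4957 lower, and 68% of the calls were kept. Past a log2 change of 2 there were 257 genes and past 6 there were 42, while at a mean of at least 5 CPM 31 passed 4. A fit of the 4 NaCl libraries only called 5641 genes, 2869 higher and 2772 lower. DESeq2 kept 95.1% of the calls of the main fit. Calls held with each of the 4 libraries left out for 2142 genes (41.1%), and no named gene reversed under any alternative. The labels do not say that replicate numbers pair the samples, and deviations of same-numbered libraries correlated by 0.086 between the NaCl groups and 0.259 between the control groups, so the numbers were taken only as names. A replicate block over all 12 libraries gave 2463 higher and 2352 lower genes on NaCl, 1220 called on control medium and 596 for the salt response, and a block over the 4 NaCl libraries gave 7150 called. The authors' deposited table of this comparison holds 2932 higher and 3303 lower genes at their FDR under 0.05, of which 4728 were also called here in the same direction and 0 in the opposite one. With 2 libraries a group, small changes and genes of few counts are the least secure, and on NaCl the total of calls moved more with 1 library left out than did the storage, LEA and antenna counts; on control medium and for the salt response the LEA count moved more than the total.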
